A study of Mus musculus with 2 samples.

Results

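The miRNAs described here are those processed from the hairpins that run from miR-379 to miR-3072 in the *Dlk1*-*Dio3* imprinted region of mouse chromosome 12, the cluster whose distal end lies in the noncoding gene *Mirg*. Members were chosen by name, as every mature product, of either arm, of 38 miRNAs. All 38 names were found in the table, and they gave 72 of its 1147 entries. No precursor-named entry of the cluster was listed.

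Small RNA was sequenced from the smooth muscle of the jejunum of C57BL/6 mice aged 15 days, in 1 *Dnmt1*-WT and 1 *Dnmt1*-KO library, to ask how miRNAs differ when the maintenance DNA methyltransferase is deleted from smooth muscle. Both genotypes carry the smMHC Cre-eGFP transgene, in which the smooth muscle myosin heavy chain (*Myh11*) promoter drives Cre and eGFP. In the KO the floxed *Dnmt1* alleles are thereby deleted in cells that use that promoter, and any other cell type in the peeled muscle layer (tunica muscularis) keeps *Dnmt1*. For both libraries the labels give the same strain, with the transgene Tg(Myh11-cre,-EGFP)2Mik and the floxed allele Dnmt1lox/lox, while the study describes WT as smMHC Cre-eGFP/+. The free-text description of the WT library names the mutant genotype, against its title and genotype field, which were followed. The *Dnmt1* transcript itself is outside what a small RNA library holds, and the genotypes could not be checked from it. By other assays the study reports lower smooth muscle markers and more CD45+ immune cells in KO muscle. From these same small RNA libraries it also reports lower miR-143, miR-145 and miR-133 in KO. In these libraries, as labelled, summed smooth muscle miRNAs, mostly miR-143-3p, had a KO/WT ratio of 0.653 and summed leukocyte miRNAs one of 1.48. The methods list animals of both sexes for each genotype, and pooling of their RNA is not stated. With 1 library per genotype there was no replicate, and every difference below is between 2 libraries and not between groups of animals. Intervals are 95% intervals that cover counting error only.

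A miRNA is cut from a hairpin in a longer primary transcript, first by Drosha in the nucleus and then by Dicer, which leaves a duplex whose 5p or 3p strand is loaded into an Argonaute protein. The loaded strand finds messenger RNAs mainly through its seed, the bases at positions 2 to 8, and lowers their translation or stability. In the *Dlk1*-*Dio3* region the protein-coding genes *Dlk1*, *Rtl1* and *Dio3* are used on the paternal chromosome, while *Meg3*, *Rian*, *Mirg* and the miRNAs between them are transcribed from the maternal one. A differentially methylated region between *Dlk1* and *Meg3* carries DNA methylation on the paternal chromosome and sets this pattern. The cluster is best known from brain, embryo and placenta, and mice that lack it have trouble adapting their metabolism after birth. DNA methylation was not analysed here.

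On the GRCm38 (mm10) build the hairpins span chr12:109709060-109747960, or 38.9 kb, with 37 on the plus strand and miR-299b on the minus strand opposite miR-299a. GENCODE places *Mirg* at chr12:109729764-109749460 on the plus strand. Of the 38 hairpins, 13 lie inside it, from miR-382 to miR-3072, and 9 of these overlap an annotated exon while 4 lie in an intron. The miR-541, miR-409, miR-154 and miR-496a hairpins are the intronic ones. The other 25 hairpins, from miR-379 to miR-544, lie upstream of the annotated gene and in no other annotated non-miRNA gene, so the name *Mirg* covers the distal end of the cluster only.

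RefSeq (GRCm38.p6) gave a mature sequence for 68 of the 72 members, and these held 64 different seeds, so that nearly every product has a target rule of its own. The sequences below are shown 5′ to 3′ with the seed in capitals. The first set holds the products that averaged at least 1000 over the 2 libraries and had a sequence, which carry most of the output of the cluster; miR-487b-3p also belongs to it.
miR-541-5p: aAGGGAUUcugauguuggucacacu
miR-382-5p: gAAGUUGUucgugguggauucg
miR-410-3p: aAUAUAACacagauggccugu
miR-381-3p: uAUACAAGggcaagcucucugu
miR-379-5p: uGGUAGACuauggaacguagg
miR-300-3p: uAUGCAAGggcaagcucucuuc
miR-411-5p: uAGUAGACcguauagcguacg
miR-409-3p: gAAUGUUGcucggugaaccccu

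miR-300-3p and miR-381-3p differ at 3 of 22 bases, written with the miR-300-3p base first and counted from the 5′ end (G4A, U21G, C22U), and 1 of these lies in the seed. miR-379-5p and miR-411-5p are likewise alike in their first bases but do not share a seed.

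A shared seed was found for 4 pairs of members. The pairs with a product averaging at least 100 are shown because their members would be expected to read the same target sites and because their reads can be hard to tell apart. miR-379-5p shares its seed with miR-1193-5p, miR-379-3p with miR-411-3p, and miR-376b-5p with miR-376c-5p.
miR-1193-5p: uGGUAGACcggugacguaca
miR-379-3p: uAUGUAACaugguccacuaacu
miR-411-3p: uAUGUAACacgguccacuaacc
miR-376b-5p: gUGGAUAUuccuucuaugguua
miR-376c-5p: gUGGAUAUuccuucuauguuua

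miR-379-3p and miR-411-3p differ at 2 bases (U10C, U22C), and miR-376c-5p and miR-376b-5p at 1 (U19G), each written with the first-named miRNA's base first. The fourth pair, miR-410-5p and miR-494-5p, was too low to be followed. The seeds of 5 members also occur in mature entries from outside the cluster, among them that of miR-410-3p, which miR-344d-3p and miR-344e-3p share at deposited values of 16 in WT and 14 in KO together.

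The last set holds the hairpins of the most abundant product and of 2 products that were lower in KO although the other arm was higher. Here the capitals mark the 2 mature arms, and the strand is plus in each.
miR-541 hairpin, chr12:109742409-109742498: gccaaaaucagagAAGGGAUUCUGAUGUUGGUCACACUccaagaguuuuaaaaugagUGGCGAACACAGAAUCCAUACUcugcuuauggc
miR-382 hairpin, chr12:109733771-109733846: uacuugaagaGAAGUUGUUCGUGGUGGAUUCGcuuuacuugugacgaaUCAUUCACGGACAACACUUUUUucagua
miR-376b hairpin, chr12:109723458-109723539: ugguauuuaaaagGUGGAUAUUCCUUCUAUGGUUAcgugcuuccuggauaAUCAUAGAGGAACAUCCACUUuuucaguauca

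The values are reads multiplied by a factor per library close to 1, so that 1 unit is close to 1 read. The *Dnmt1*-WT library totalled 5741906 and the *Dnmt1*-KO library 4754677. The deposited scale does not equalise these totals, and a ratio depends on it. In WT the members took 1.17% of all values (Wilson interval 1.16 to 1.17%), and in KO they took 1.99% (1.98 to 2.00%). Their summed values were 66920 in WT and 94703 in KO, a KO/WT ratio of 1.42 (exact Clopper-Pearson interval 1.40 to 1.43). One product set much of this sum. Without miR-541-5p the sums were 33226 and 38753, a ratio of 1.17 (1.15 to 1.18).

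Among the 59 members that averaged at least 10 over the 2 libraries, 48 were higher in KO, 10 were lower and 1 was equal. Over all 543 entries past the same minimum, 280 (51.6%) were higher and 260 (47.9%) were lower. The median log2 KO/WT ratio of the members was 0.45, a ratio of 1.37, beside 0.02 over all entries. Scaling both libraries to equal totals raised every log2 ratio by 0.27, which gave 51 of 59 members and 358 of 543 entries (65.9%) as higher, and left the distance between the 2 medians at 0.44. Most ratios were under 2-fold. At least 2-fold higher values were found for 4 members, beside 62 entries (11.4%) of the whole table, and at least 2-fold lower values for 0 members, beside 54 entries (9.94%). The members' share past 2-fold was thus no larger than that of the table. With a threshold of 1.5-fold, 22 members were higher, beside 137 entries (25.2%), and 3 were lower, beside 112 entries (20.6%). Those 3 were miR-376b-5p, miR-539-5p and miR-382-5p. With equal totals 38 members were at least 1.5-fold higher, beside 200 entries (36.8%), and only miR-376b-5p was at least 1.5-fold lower, at 0.627, beside 67 entries (12.3%), since miR-539-5p came to 0.688 and miR-382-5p to 0.772. The middle 50% of the members' log2 ratios lay between 0.15 and 0.66, and that of all entries above 0 in both libraries between -0.49 and 0.54. The counting interval of the ratio lay above 1 for 29 of the 59 members, below 1 for 4, and included 1 for 26. Over all 543 entries it lay above 1 for 172 (31.7%) and below 1 for 161 (29.7%).

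**Figure D1:**
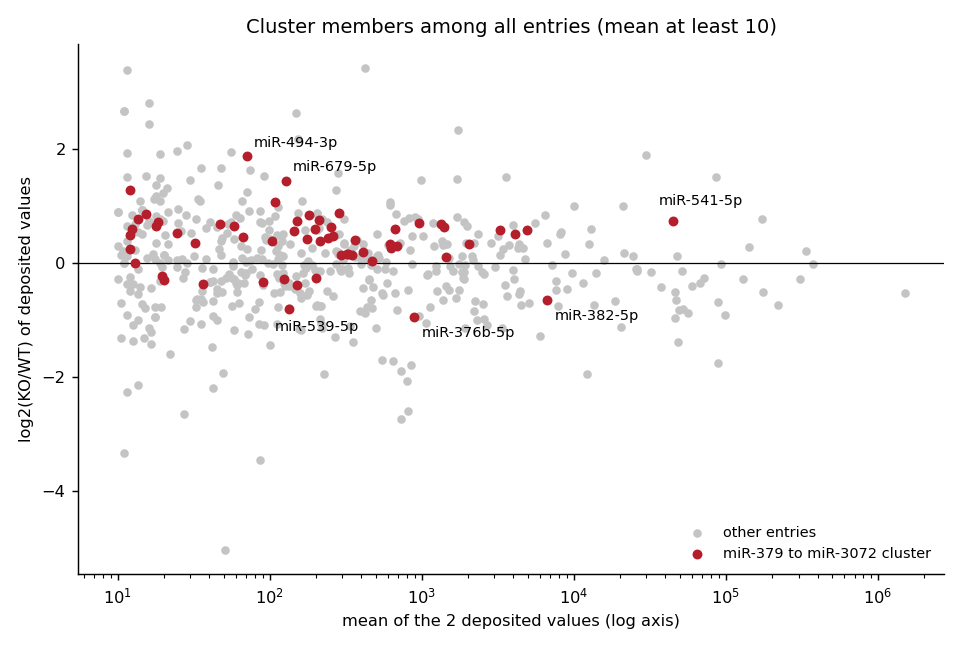
Log2 KO/WT ratio of the deposited values (vertical axis) against the mean of the 2 values (horizontal log axis) for every entry averaging at least 10 that was above 0 in both libraries, with 1 point per entry and 1 library per genotype. The 59 cluster members (red) lie in a band mostly above 0, between log2 ratios of -0.94 and 1.88, inside the wider cloud of the other entries (grey).

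The direction was alike at every level of abundance. Of the 9 members averaging at least 1000, 8 were higher in KO, where 56 of all 136 entries at that level (41.2%) were. Between 100 and 1000, 26 of 31 members were higher, beside 94 of 180 entries (52.2%). Between 10 and 100, 14 of 19 (73.7%) were, beside 130 of 227 entries (57.3%), so by this share the lowest class lay nearest to the table. The median ratios in these classes were 1.49, 1.31 and 1.44, beside 0.913, 1.04 and 1.09 over all entries. By arm, 19 of 26 5p products and 29 of 33 3p products were higher, with median ratios of 1.29 and 1.43, beside 127 of 252 5p entries (50.4%) and 129 of 247 3p entries (52.2%) of the whole table.

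miR-541-5p, cut from an intron of *Mirg*, was by far the most abundant product. It measured 33694 in WT and 55950 in KO, a ratio of 1.66 (1.64 to 1.68). It made up 50.4% of the cluster in WT and 59.1% in KO, and it went from the 29th to the 16th place among all entries of its library. On the deposited scale the difference in this product alone, 22256, was 80.1% of the net difference of the cluster, 27783. That share changes with the scaling of the libraries. The net also includes products that were lower in KO, among them miR-382-5p at -10.6%. Its 3p partner was near the limit of counting, at 5.0 in WT and 8.0 in KO.

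miR-382-5p was second in abundance and the only one of the 9 abundant members that was lower in KO. It measured 8140 in WT and 5202 in KO, a ratio of 0.639 (0.617 to 0.662). Its share of the cluster was 12.2% in WT (11.9 to 12.4%) and 5.49% in KO (5.35 to 5.64%). The hairpin overlaps the annotated exons of *Mirg* and is the first of the cluster to lie inside that gene.

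Most of the next products had ratios from 1.43 to 1.61, while those of miR-300-3p and miR-487b-3p were smaller. miR-410-3p, from the distal end of the cluster, measured 3927 in WT and 5849 in KO, a ratio of 1.49 (1.43 to 1.55). miR-381-3p measured 3366 in WT and 4807 in KO, a ratio of 1.43 (1.37 to 1.49). miR-379-5p, the first product of the cluster, measured 2610 in WT and 3890 in KO, a ratio of 1.49 (1.42 to 1.57). Products from both ends of the cluster thus had ratios within each other's counting intervals. miR-411-5p measured 1100 in WT and 1696 in KO, a ratio of 1.54 (1.43 to 1.66). miR-409-3p measured 1030 in WT and 1654 in KO, a ratio of 1.61 (1.49 to 1.74). miR-300-3p, close in sequence to miR-381-3p, was higher by less, at 1815 in WT and 2275 in KO, a ratio of 1.25 (1.18 to 1.33). miR-487b-3p measured 1392 in WT and 1497 in KO, and its ratio of 1.08 (0.999 to 1.16) included 1 on the deposited scale but came to 1.30 with equal totals.

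**Figure D2:**
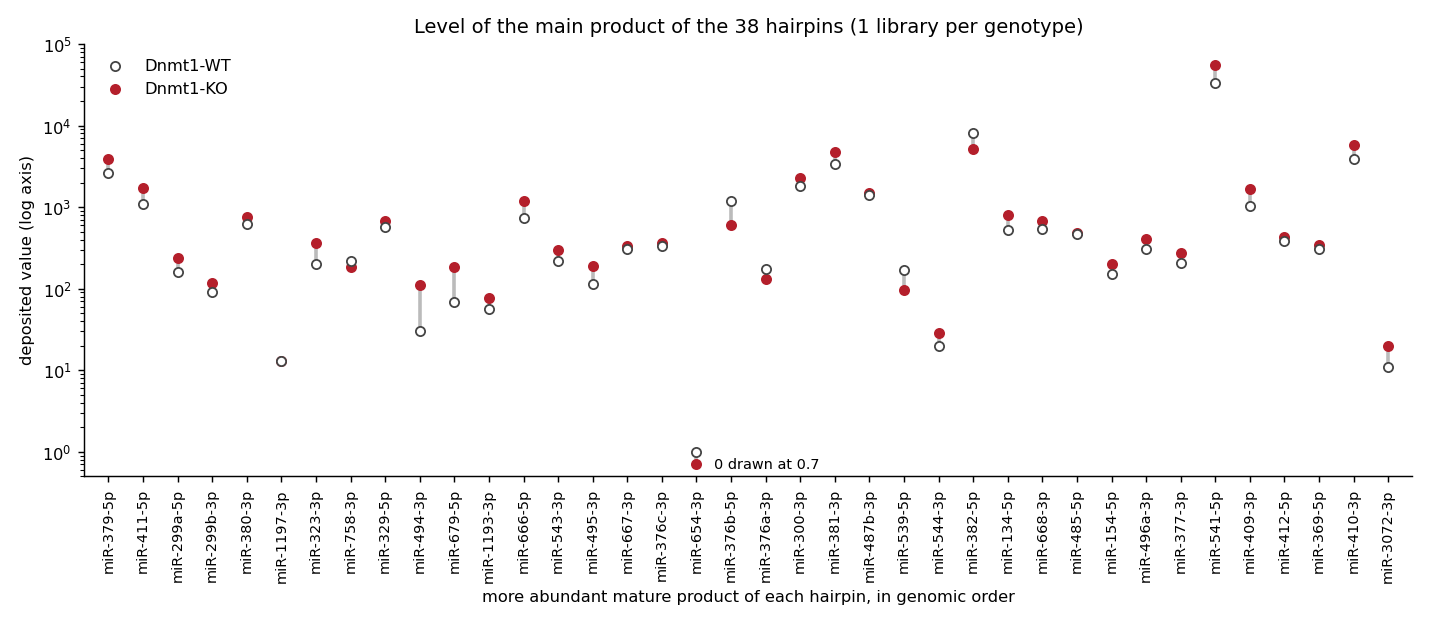
Deposited value (vertical log axis) of the more abundant mature product of each of the 38 hairpins in genomic order (horizontal axis), with open circles for *Dnmt1*-WT and red circles for *Dnmt1*-KO, 1 library each. The red circle lies above the open one for 31 of the 37 products averaging at least 10, and below it for 5, among them miR-382-5p and miR-376b-5p; miR-654-3p was near 0 in both libraries.

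The highest ratios were in products of middle abundance. miR-679-5p measured 68.2 in WT and 185.5 in KO, a ratio of 2.72 (2.05 to 3.65). miR-411-3p measured 69.7 in WT and 146.1 in KO, a ratio of 2.10 (1.56 to 2.82), and miR-379-3p, with which it shares a seed, 158.0 in WT and 264.8 in KO, a ratio of 1.68 (1.37 to 2.05). Both were higher in KO, as were their abundant 5p partners. miR-323-3p measured 200.6 in WT and 366.0 in KO, a ratio of 1.82 (1.53 to 2.18). miR-485-3p measured 130.4 in WT and 232.3 in KO, a ratio of 1.78 (1.43 to 2.23). The 2 remaining members past 2-fold lay under the mean of 100 used for naming and were singled out after their values were seen. miR-494-3p had the highest ratio of the 59, 3.68 (2.44 to 5.71), from values of 30.1 in WT and 110.7 in KO. miR-410-5p was at 7 in WT and 17 in KO, and the interval of its ratio of 2.43 (0.952 to 6.89) included 1.

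miR-134-5p, which holds down translation of *Limk1* in dendrites of neurons, lay outside the rule for naming and was picked as a well studied product of the cluster. It measured 530.5 in WT and 804.7 in KO, a ratio of 1.52 (1.36 to 1.70), near the ratios of miR-411-5p and miR-409-3p.

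The lowest ratios lay mainly between miR-376b and miR-382. miR-376b-5p measured 1175.8 in WT and 610.8 in KO, a ratio of 0.519 (0.471 to 0.574), the lowest of the 59 members. miR-539-5p measured 171.5 in WT and 97.7 in KO, a ratio of 0.570 (0.440 to 0.735). miR-376a-3p measured 172.5 in WT and 131.6 in KO, a ratio of 0.763 (0.604 to 0.963). With miR-382-5p these were the 4 members whose interval lay below 1 on the deposited scale. miR-376a-5p measured 135.4 in WT and 111.7 in KO, a ratio of 0.825 (0.636 to 1.07). The 5 other members lower in KO had ratios from 0.776 to 0.853 and intervals that included 1. They were miR-543-5p, miR-666-3p, miR-323-5p, miR-758-3p and miR-300-5p, and the ratios of the last 2 turned to 1.01 and 1.03 when both libraries were scaled to equal totals.

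Primary transcripts of miR-376 family members are known to undergo A-to-I editing, which can change a mature sequence; the table has 1 entry per miRNA and does not separate edited from unedited reads. The family did not act as a block in these libraries. miR-376c-3p measured 331.9 in WT and 365.0 in KO, a ratio of 1.10 (0.945 to 1.28). miR-376b-3p measured 117.3 in WT and 172.5 in KO, a ratio of 1.47 (1.16 to 1.88), so the 3p products of these 3 hairpins had ratios from 0.763 to 1.47. miR-376c-5p was at 5.5 in WT and 4.5 in KO.

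The 2 arms of a hairpin come from the same precursor. In 22 hairpins both arms averaged at least 10, and in 15 of these both arms were higher in KO, in 1 (miR-376a) both were lower, and in 6 they went apart. Over all 152 pairs of arms in the table past the same minimum, 102 (67.1%) had the same direction. In 55 of these pairs both arms were higher in KO, and in 47 both were lower. Across the 22 hairpins of the cluster the log2 ratios of the 2 arms had a Pearson's r of 0.01 and a Spearman's rho of -0.05. Over the 152 pairs of the table both were 0.39. With both arms averaging at least 100, r was 0.44 and rho 0.67 over 8 hairpins of the cluster. Over the 62 such pairs of the table they were 0.46 and 0.48. These are descriptions over products of the same 2 libraries. The SD of the difference in log2 ratio between the arms was 0.62 in the 22 hairpins, where counting error alone would give 0.41. Over the 152 pairs of the table it was 0.87, where counting error would give 0.39. Over the 8 hairpins with both arms averaging at least 100 the SD was 0.52, where counting error would give 0.19. Over the 62 pairs of the table at that minimum it was 0.75, where counting error would give 0.15. The ratios of single products thus scattered by more than counting, also within a precursor, which bears on how far any single ratio above can be read. The arms were at least 2-fold apart in 4 of the 22 hairpins, beside 35 of the 152 pairs of the table (23.0%).

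In miR-376b the 5p product was 0.519-fold and the 3p product 1.47-fold, so that the 5p share of the hairpin was 90.9% in WT (89.2 to 92.4%) and 78.0% in KO (75.1 to 80.8%). In miR-382 the 3p product measured 45.1 in WT and 70.8 in KO, a ratio of 1.57 (1.07 to 2.33) against 0.639 for 5p. The 5p share was 99.4% in WT (99.3 to 99.6%) and 98.7% in KO (98.3 to 98.9%). In miR-323 the 5p product was at 22.1 in WT and 18.0 in KO, and its share of the hairpin was 9.92% (6.64 to 14.5%) and 4.69% (2.98 to 7.27%). In miR-666 the 5p product was the one that was higher, at 726.1 in WT and 1176.7 in KO, a ratio of 1.62 (1.48 to 1.78), while the 3p product measured 100.3 and 79.8, a ratio of 0.796 (0.585 to 1.08). The 5p share of miR-666 was 87.9% in WT (85.5 to 89.9%) and 93.6% in KO (92.2 to 94.9%). These shares do not depend on how the 2 libraries are scaled. In 0 of the 34 hairpins with both arms listed did the more abundant arm differ between the libraries.

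**Figure D3:**
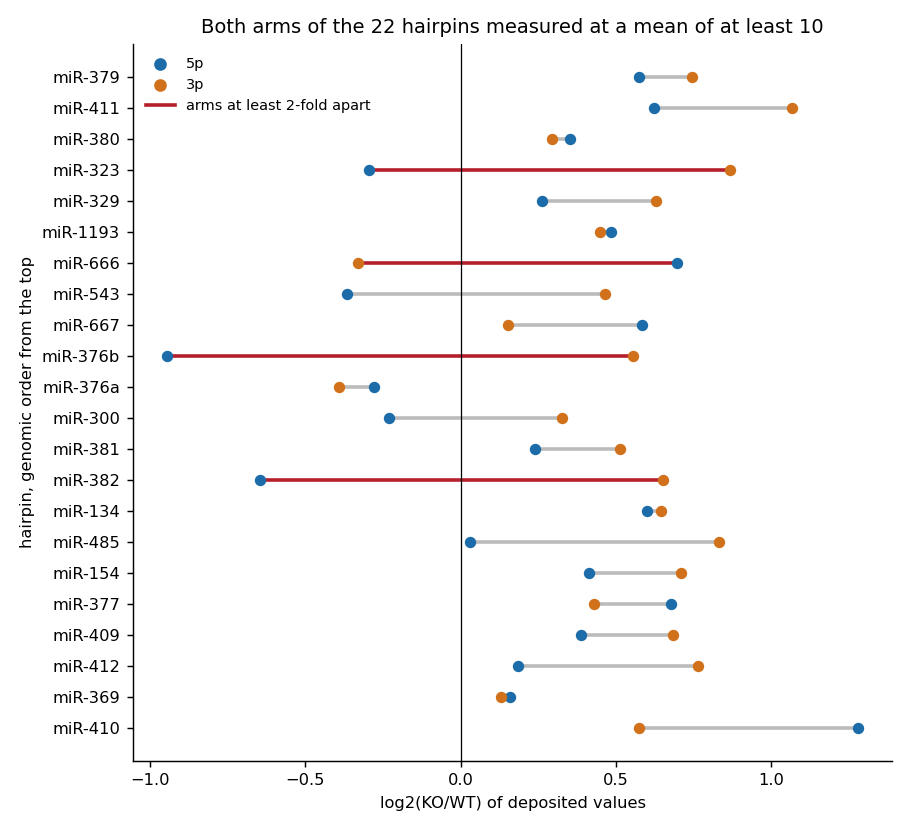
Log2 KO/WT ratio (horizontal axis) of the 5p (blue) and 3p (orange) product of each of the 22 hairpins with both arms averaging at least 10, listed in genomic order, 1 library per genotype. The lines join the arms of a hairpin and are red where the arms are at least 2-fold apart, in miR-323, miR-666, miR-376b and miR-382, and in each of these the arms fall on opposite sides of 0.

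Along the cluster the ratios followed no steady gradient. Over the 40 members averaging at least 100, Spearman's rho of the log2 ratio with the order of the hairpins was -0.27 and Pearson's r was -0.22, and over the 59 averaging at least 10 they were 0.04 and -0.0035. These are descriptions over products that share 2 libraries, and in part precursors. In the first 19 hairpins 17 of 19 members averaging at least 100 were higher in KO, with a median ratio of 1.49. In the second 19 hairpins 17 of 21 were higher, with a median ratio of 1.25. Over all entries averaging at least 100, 150 of 316 (47.5%) were higher, with a median ratio of 0.976. Inside the annotated *Mirg* gene 21 of 22 members averaging at least 10 were higher and only miR-382-5p was lower, with a median ratio of 1.5, beside 51.6% of all entries at that minimum. Upstream of it 27 of 37 were higher and 9 lower, with a median ratio of 1.30. The members inside *Mirg* summed to 50433 in WT and 73307 in KO, a ratio of 1.45 (1.44 to 1.47). Without miR-541-5p they summed to 16739 and 17357, a ratio of 1.04 (1.02 to 1.06), and without miR-382-5p as well to 8599 and 12154, a ratio of 1.41 (1.37 to 1.45). The members upstream summed to 16487 and 21396, a ratio of 1.30 (1.27 to 1.32). These sums are on the deposited scale, and scaling to equal totals multiplies each of their ratios by 1.21. A run of 15 members averaging at least 10 from miR-154 to miR-3072, marked off after the values were seen, was higher in KO throughout, with a median ratio of 1.49.

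**Figure D4:**
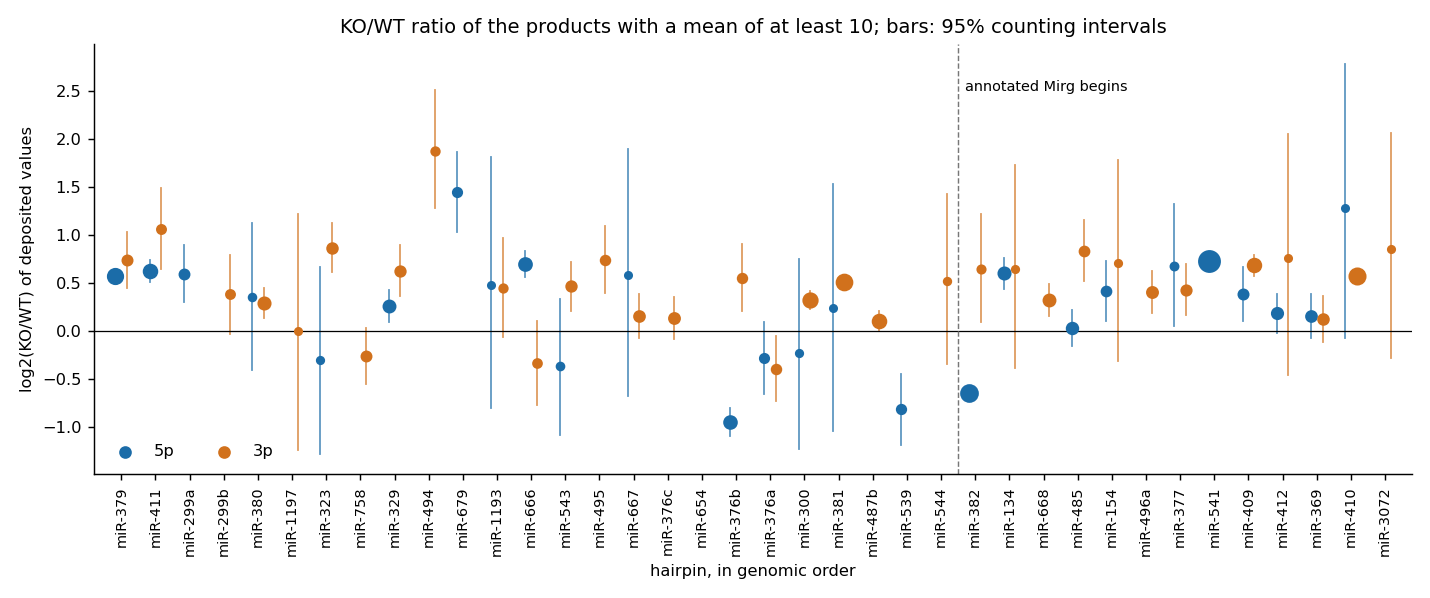
Log2 KO/WT ratio of the 59 members averaging at least 10 (vertical axis) by hairpin in genomic order (horizontal axis), 5p in blue and 3p in orange, with larger points for more abundant products and bars for 95% counting intervals, 1 library per genotype. The dashed line marks where annotated *Mirg* begins; to its right miR-382-5p is the only point below 0, and to its left lie 9, among them miR-376b-5p and miR-539-5p.

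The miRNAs nearest in kind are those of the *Meg3* and anti-*Rtl1* side of the same region, which gave 29 entries, 25 of them averaging at least 10. Of these 19 were higher in KO and 6 lower, with a median ratio of 1.28, beside 51.6% higher and a median ratio of 1.01 over all entries. Of the 15 averaging at least 100, 13 were higher, beside 47.5% of all entries. Their sum was 155497 in WT and 255292 in KO, a ratio of 1.64 (1.63 to 1.65), and most of it was miR-127-3p, an anti-*Rtl1* product that measured 127574 and 216270. The difference between the lists was not tested.

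Other products of middle abundance, picked with their values in view, had ratios on either side of the median member. miR-329-3p measured 199.6 in WT and 309.1 in KO, a ratio of 1.55 (1.29 to 1.86), miR-495-3p 113.3 and 189.5, a ratio of 1.67 (1.32 to 2.13), and miR-299a-5p 158.5 and 239.3, a ratio of 1.51 (1.23 to 1.86). miR-380-3p measured 612.7 in WT and 750.9 in KO, a ratio of 1.23 (1.10 to 1.37). miR-329-5p measured 567.6 and 681.1, a ratio of 1.20 (1.07 to 1.34), and miR-668-3p 544.5 and 681.1, a ratio of 1.25 (1.12 to 1.40). The last 3 were higher in KO by less than the median member. miR-412-5p measured 383.1 and 435.8, a ratio of 1.14 (0.989 to 1.31), and miR-667-3p 302.9 and 337.0, a ratio of 1.11 (0.95 to 1.30), both with intervals that included 1 on the deposited scale. miR-496a-3p measured 310.9 and 411.8, a ratio of 1.32 (1.14 to 1.54).

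The least abundant members gave little to compare. In all, 13 had a mean under 10 and no value above 10, most of them the lesser arm of their hairpin. miR-544-5p was at 3.0 in WT and 0 in KO, within the 3 reads that a count of 0 allows. miR-758-5p and miR-668-5p were listed at 0 in WT and miR-654-3p at 0 in KO, each with 1 or 2 in the other library. miR-1193-5p, which carries the seed of miR-379-5p, measured 10 in WT and 14 in KO, so that the pair's output of that seed, 2620 in WT and 3904 in KO, was nearly all miR-379-5p. miR-1197-3p was at 13.0 in both libraries.

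Some values are uncertain because reads can match more than 1 entry. After division by the factor of the library, 4 of the 63 members with a value under 1000 were not whole within 0.1 in such a value. They were miR-379-3p and miR-411-3p, and miR-376b-5p and miR-376c-5p, which are the 2 pairs that differ at 1 or 2 bases, and they stood near 265.54, 146.51, 612.51 and 4.51 reads in KO. How many of their reads match both members of a pair is not given in the sources used here. miR-299b-3p, at 90.3 in WT and 117.7 in KO, cannot be told apart from miR-299a-3p. Its 18 bases are the first 18 of the 22 of miR-299a-3p, which has no entry of its own in the table.
miR-299b-3p: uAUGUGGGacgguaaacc
miR-299a-3p: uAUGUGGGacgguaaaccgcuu

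The members share sequence features that the rule did not use. Across the 68 with a sequence, 38.2% began with A and 4.41% with C, where 25.1% and 22.7% of 849 other mature entries with a sequence did. The share that began with U was 42.6% and 40.9%. Median length was 22 bases in both. Related hairpins recur along the cluster, and short words recur with them. Among 34 3p members with a sequence the word GGUCCA, which no other word of 6 bases exceeded in frequency, was in 5, namely miR-379-3p, miR-411-3p, miR-380-3p, miR-758-3p and miR-412-3p, and in 0 of 361 other 3p entries. Among 34 5p members GUUGCC was in 6, from miR-543-5p to miR-377-5p, and in 1 of 386 other 5p entries. The words were searched on the mature strand only, may overlap each other and were picked for being frequent in the members, so these shares are a description. The GC content of the 37 members with a sequence and a mean of at least 100 had a weak Spearman's rho of 0.20 with the log2 ratio. This too is a description over products of the same 2 libraries.

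The samples are tissue, and fewer cells of a type cannot be told apart from less RNA per cell. Smooth muscle miRNAs (11 entries of miR-143, miR-145a, miR-1a, miR-133a, miR-133b and miR-28a) took 38.7% of the WT library and 30.5% of the KO library. Their summed values were 2219265 and 1448266, a ratio of 0.653, with miR-133b-5p at 0 in WT. Most of this sum was miR-143-3p, which measured 1777100 in WT and 1232984 in KO, a ratio of 0.694. Of their 9 entries averaging at least 10, 8 were lower in KO, beside 47.9% of all 543 entries at that minimum. This count and those of the lists below are on the deposited scale, where 51.6% of all entries were higher. With equal totals 65.9% of all entries were higher. Leukocyte miRNAs (miR-142a, miR-223, miR-150, miR-155 and miR-146a) summed to 12762 in WT and 18827 in KO, a ratio of 1.48, and 7 of 7 were higher. Endothelial miR-126a summed to 10080 and 14282, a ratio of 1.42, the red cell miRNAs to 153.4 and 460.7, a ratio of 3.0, and the epithelial list (miR-200a, miR-200b, miR-200c, miR-141, miR-429, miR-192, miR-194 and miR-215) to 14645 and 18346, a ratio of 1.25, with 9 of 13 entries higher and 4 lower. Of the neuron list (miR-124, miR-9, miR-128, miR-129, miR-138, miR-137, miR-153, miR-7a and miR-7b), which is of interest because the cluster is well known in neurons, the sums were 21757 in WT and 17682 in KO, a ratio of 0.813, with 13 of 18 entries lower, 5 higher and miR-128-2-5p at 0 in KO. Its share of all values was 0.379% in WT and 0.372% in KO, and miR-9-5p (1751 and 1914) was higher in KO where miR-138-5p (2638 and 1195) was lower. The part of these lists in the difference of the cluster was not tested.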

How the data were processed

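One small RNA table of 2 libraries was used, with the deposited values of each miRNA in *Dnmt1*-WT and *Dnmt1*-KO. Per the labels, RNA isolated with a mirVana kit went into the Illumina TruSeq Small RNA preparation. Per the study's methods a provider carried out the sequencing, and the analysis followed an earlier description. Bowtie and mm10 are named in the submitters' processing notes, without a version. The miRNA database, the treatment of reads with several matches and the scaling are not given in the sources used here. The deposited values behave as counts times a factor per library: of values from 20 to 300, 89.1% in WT and 91.1% in KO were whole within 0.1 after division by 1.003 and 0.9972. No count model was run, as the rest were fractional. The authors' own fold change column was not used.

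KO/WT ratios were taken on the deposited scale with no pseudocount. Intervals are exact binomial (Clopper-Pearson) for ratios and Wilson for shares, at 95%, and cover counting error only, since reads carry no molecular identifiers. A value of 0 allows up to 3 reads, a share of 5.24e-05% in WT and 6.29e-05% in KO. Counts use members with a mean of at least 10. Named were members with a mean of at least 1000, the 5 highest and 5 lowest ratios at a mean of at least 100, both arms of hairpins at least 2-fold apart, seed pairs with a mean of at least 100, and members at 0 in 1 library with at least 3 in the other. Other members that are named were picked with their values in view, and members and lists were chosen with earlier results of these data known. Ratios were also taken under 3 other scalings, 2 other minimum means, 2 pseudocounts and a 1.5-fold threshold. Python 3.11.15, numpy 2.4.6 and scipy 1.17.1 were used, the interval and counting code was tested on simulated data, and positions came from RefSeq GRCm38.p6 and GENCODE M21. With 1 library per genotype no test was run.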

Additional observations from a re-analysis of the deposited data

How the results depend on the processing

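With both libraries scaled to equal totals, with equal totals without miR-143-3p, and with the median ratio of entries at a mean of at least 100 set to 1, the summed ratio of 1.42 became 1.71, 1.59 and 1.45. Under the first 2 the median log2 ratio of 0.45 became 0.72 and 0.62, and the number of members at least 2-fold higher went from 4 to 11 and 7, while that of all entries went from 62 to 106 and 84, so that the members' share, 18.6% and 11.9%, stayed below that of the table, 19.5% and 15.5%. Equal totals turned miR-758-3p to 1.01 and miR-300-5p to 1.03, the only 2 of 58 members with a ratio other than 1 whose direction turned under these scalings. The number at least 2-fold higher was 7 with a minimum mean of 1, 2 with a minimum of 100, 2 with 1 product per hairpin, 2 on log2((KO + 10)/(WT + 10)) and 22 at 1.5-fold. The number at least 2-fold lower went from 0 to 2 with a minimum mean of 1 and to 3 at 1.5-fold. The number lower in KO went from 10 to 6 with a minimum of 100 and to 5 with 1 product per hairpin, which also gave 31 higher in place of 48, as fewer products are then counted. Without miR-541-5p the summed ratio was 1.17 on the deposited scale, which scaling to equal totals multiplies by 1.21. Without miR-143-3p in the total the shares were 1.69% in WT and 2.69% in KO. Spearman's rho with the order went from -0.27 to 0.036 with a minimum mean of 10 and to -0.16 with 1 product per hairpin, and the SD between arms from 0.62 to 0.52 with both at 100. Where no construction is named, the cause was not tested. No paired analysis was possible because each genotype had 1 library.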
